A study of Mus musculus with 11 samples.

Results

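The clustered, replication-dependent histone genes were followed by histone class in primary mouse myoblasts, dividing cells that can go on to form muscle fibres. Members were all genes whose older mouse symbol starts with Hist1h, Hist2h, Hist3h or Hist4h. Of 22104 genes in the table, 65 carried such a symbol, and 62 of them reached a normalized read count of at least 10 in 2 or more libraries, which put them among the 14729 genes tested. The 62 comprised 5 H1, 17 H2A, 15 H2B, 12 H3 and 13 H4 genes. They were picked out for being higher in hypoxia in knockout cells, so for that comparison counts past the threshold and differences are given as a description, and nothing is concluded from them. Just inside the limit were Hist1h2ao, from 0 to 18.6 in its libraries, and Hist1h2bq, from 0 to 14.99. Just outside were Hist1h1t, at most 8.75, and Hist1h2al, at most 8.43, and Hist1h2aj had 3.81 in 1 library and 0 in the others.

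C57BL/6 mice of about 8 weeks, either wild-type or Bmal1-/-, gave the cells, which were isolated from the tibialis anterior muscle. Bmal1, listed as Arntl, encodes the partner of CLOCK in the transcription factor that drives the circadian clock. Cells spent 6 h in either 21% oxygen, here called normoxia, or 1% oxygen, here called hypoxia, and total RNA was sequenced without selection for poly(A) tails. The 11 libraries were 2 of wild-type cells in normoxia, 3 of wild-type cells in hypoxia, 3 of Bmal1-/- cells in normoxia and 3 of Bmal1-/- cells in hypoxia. The labels do not name the deletion allele, and do not say whether it acted in the whole animal or whether replicates were separate cultures or animals. P-values therefore reflect only how far these libraries differ among themselves, and that spread may be technical.

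Core histones H2A, H2B, H3 and H4 form the protein spool of the nucleosome, with H2A and H2B as one kind of dimer and H3 and H4 as the other, and the linker histone H1 binds where DNA enters and leaves. Dividing cells need new histones as DNA is copied, and the clustered genes supply them in S phase. Their messages have as a rule no intron and no poly(A) tail. They end instead just after a stem-loop that is bound by SLBP and cut with the help of the U7 small nuclear RNA. When DNA synthesis stops, these messages are degraded quickly. Histone variants such as H2A.Z and H3.3 are made outside S phase too, from messages with poly(A) tails. Proliferating myoblasts express the clustered genes strongly and lose them as they leave the cell cycle.

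Of the 65 genes, 52 lie on chromosome 13, 9 on chromosome 3, 3 on chromosome 11 and 1 on chromosome 6. A stem-loop of the histone type was found after the stop codon in 43 of them, 21 to 58 bases downstream. Of the 22 without one, 13 had fewer than 40 annotated bases after the stop codon. The stems below are shown because those of the H4 genes differ from the stem that the other classes share. They come from GENCODE M21 transcripts of GRCm38, each is 16 bases, and capitals mark the 2 strands of the stem around the loop in lower case.
Hist1h2ap: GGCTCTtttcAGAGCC
Hist1h2bk: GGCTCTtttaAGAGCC
Hist1h4d: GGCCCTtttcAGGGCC
Hist1h4b: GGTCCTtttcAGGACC
H2afx: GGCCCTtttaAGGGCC
The first lies at chr13:21833029-21833044 on the minus strand and the second at chr13:22036300-22036315 on the plus strand. Those of Hist1h4d and Hist1h4b lie at chr13:23581950-23581965 and chr13:23757366-23757381, both on the plus strand. The stem GGCTCT was present in 4 H1, 11 H2A, 7 H2B and 9 H3 genes and in no H4 gene. Of the 12 H4 genes with a stem-loop, 10 had GGCCCT and 2 had GGTCCT. Among 14684 other protein-coding genes with at least 100 annotated bases after the stop codon, 1 (0.00681%) held such a stem-loop there. It was H2afx on chromosome 9, the gene of the variant H2A.X, whose message is known to occur both with a stem-loop end and with a poly(A) tail.

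The coding sequences of the classes also differed in base composition, which is set beside the differences below. The first 60 bases from the start codon are shown for 4 members, read from the same transcripts, with every G and C in capitals.
Hist1h2ai: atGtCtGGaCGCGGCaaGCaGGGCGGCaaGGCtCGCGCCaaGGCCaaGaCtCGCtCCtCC
Hist1h2bl: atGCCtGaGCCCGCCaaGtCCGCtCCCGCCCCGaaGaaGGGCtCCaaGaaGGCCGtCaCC
Hist1h4d: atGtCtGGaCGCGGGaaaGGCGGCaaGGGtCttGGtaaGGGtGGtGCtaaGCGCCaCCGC
Hist1h1a: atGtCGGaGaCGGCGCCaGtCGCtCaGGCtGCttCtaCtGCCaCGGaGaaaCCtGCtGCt
Over the whole coding sequence, G and C made up 70.3% in Hist1h2ai, 63.5% in Hist1h2bl, 64.7% in Hist1h4d and 56.7% in Hist1h1a. The class medians were 69.5% for H2A, 67.4% for H3, 65.7% for H4, 62.8% for H2B and 61.8% for H1, against 53.1% over 12713 other tested protein-coding genes.

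Libraries held 18707697 to 33613328 reads in genes, and all 6 hypoxia libraries were deeper than any normoxia library. Together the 65 listed genes took 0.626 to 0.826% of those reads. Arntl was lower in all 6 knockout libraries, at 98.8 to 134, than in the 5 wild-type libraries, at 264 to 328. The glucose transporter gene Slc2a1, a known hypoxia target, rose by 1.95 on the log2 scale (SE 0.10) in wild-type hypoxia and by 1.86 (SE 0.09) in knockout hypoxia. Of 10 myoblast markers 9 passed the filter, and the list summed to 52133 to 62900 (Myod1 group means 8279.9 to 9313). Fibroblast markers summed to 17202 to 28130, while endothelial markers summed to at most 75 and leukocyte markers to at most 50. Pericyte and smooth muscle markers summed to 25125 to 33122, nearly all of it from Acta2, the smooth muscle actin gene that cultured myoblasts and fibroblasts also express. Rgs5 and Notch3 were present too, at 285 to 611, while Myh11 was at most 14.1 and Kcnj8 at most 1.55.

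In wild-type cells, no clustered histone gene passed the test for hypoxia. In bulk RNA, here and below, a different share of cells in S phase and a different amount of message per cell cannot be told apart. The wild-type log2 differences use no library of the contrast by which the genes were chosen. The spread behind their p-values and intervals was estimated over all 11 libraries. Of the 62 members, 0 rose and 0 fell by limma at an adjusted p under 0.05, where 1.70% of all tested genes rose and 0.468% fell. At an unadjusted p under 0.05 there were 7 members, or 11.3%, against 13.6% of all tested genes. EdgeR and DESeq2 also called 0. The median log2 difference over the members was 0.07, and 45 of 62 were above 0, against a median of -0.003 and 49.4% above 0 over all tested genes. Every hypoxia value lay above every normoxia value in 11 members, and in 0 every one lay below, where 15.4% and 14.4% of all tested genes showed these patterns.

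The 5 members with the smallest p in wild-type cells came 1 from each class. Hist1h2ad (H2A) had normalized read counts of 651 and 577 in normoxia and 852, 770.3 and 729.9 in hypoxia. Its groups did not overlap, and the log2 difference was 0.35 (95% interval 0.08 to 0.63, limma adjusted p = 0.231). Hist1h2bk (H2B) had 5709 and 5086 in normoxia and 6465, 6014 and 5762 in hypoxia, a difference of 0.17 (0.04 to 0.31, limma adjusted p = 0.231). Hist1h1a, a gene of linker histone H1, had 3168 and 3024 in normoxia and 3502, 3559 and 3296 in hypoxia, a difference of 0.16 (0.03 to 0.28, limma adjusted p = 0.232). The remaining 2 were Hist1h4b, with 0.18 (limma adjusted p = 0.271), and Hist1h3d, with 0.17 (limma adjusted p = 0.277). All 5 stood slightly higher in hypoxia, by less than could be called over all tested genes. For the abundant Hist1h4d and Hist1h1e the intervals were -0.13 to 0.09 and -0.12 to 0.07, which excludes larger changes in either direction at the spread of these libraries. In Hist1h2ai the interval was wide, from -0.24 to 0.93.

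Summed by class over the 65 listed genes, wild-type values overlapped between the oxygen levels in all 5 classes. The H2A genes summed to 24996 and 20551 normalized reads in normoxia and to 23287, 22115 and 25150 in hypoxia. The means were 22773 ± 3143 (SD, n = 2) and 23517 ± 1531 (SD, n = 3). On the log2 scale the hypoxia difference was 0.05 for H2A, 0.10 for H2B, 0.03 for H1 and H4 and 0.00 for H3. The H2A and H3 values turned negative, to -0.09 and -0.12, without wild-type normoxia replicate 2, and were 0.19 and 0.12 without replicate 1.

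In knockout cells the sums of every class were higher in all 3 hypoxia libraries than in all 3 normoxia libraries, and H2A differed most. H2A sums were 17836, 17121 and 20935 in normoxia and 29965, 27536 and 29616 in hypoxia, which is 56.4% higher on average. H3 sums went from 24775 ± 2595 to 32620 ± 1022 (SD, n = 3 each), 32.1% higher, and H4 sums from 44113 ± 3168 to 53708 ± 2165, 21.9% higher. H2B sums went from 32298 ± 498 to 38185 ± 2587, 18.1% higher, and H1 sums from 32247 ± 163 to 35100 ± 1727, 8.76% higher. The ratio of summed H2A to H2B reads was 0.560, 0.531 and 0.638 in knockout normoxia, against 0.728, 0.751 and 0.807 in knockout hypoxia. In the wild-type libraries it was between 0.668 and 0.798. Thus the knockout normoxia libraries had the lowest H2A share, and the knockout hypoxia libraries overlapped the wild-type range.

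**Figure D1:**
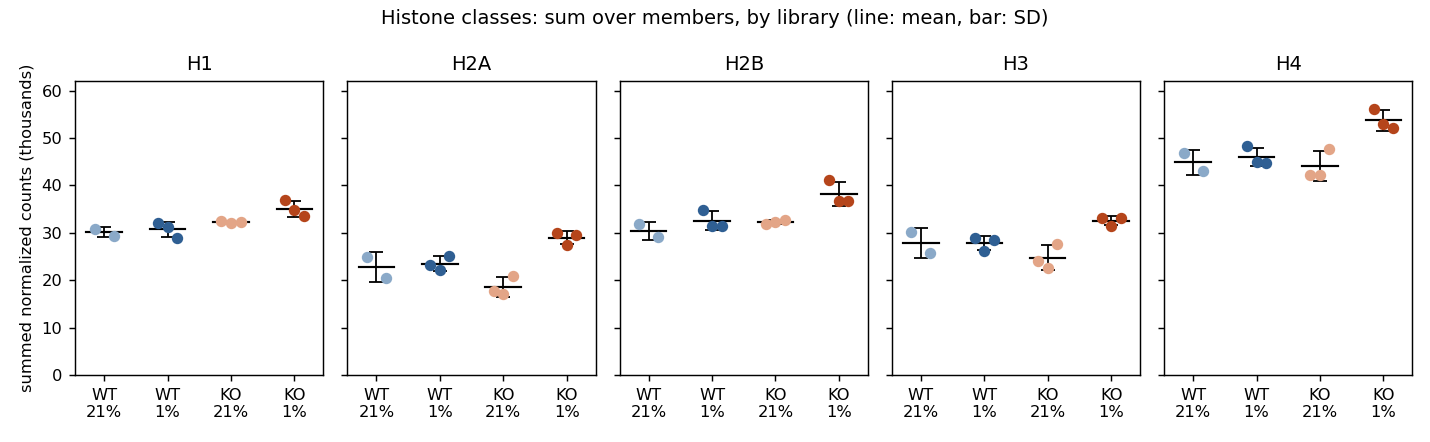
Summed normalized read counts (axis in units of 1000) of the genes of each histone class, 1 point per library, for wild-type (WT) and Bmal1-/- (KO) cells at 21% and 1% oxygen, with the group mean and SD. In KO cells the 3 libraries at 1% oxygen lie above the 3 at 21% in each class. For H2A the KO libraries at 21% have 17836, 17121 and 20935, and the lower WT library at 21% has 20551.

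Among single genes in knockout cells, 38 of 62 members were past the threshold upward and 0 downward, where 3.15% and 0.937% of all tested genes were. Since the genes were chosen on this contrast, nothing is read from that count. It comprised 14 of 17 H2A, 10 of 12 H3, 8 of 13 H4, 6 of 15 H2B and 0 of 5 H1 genes. Values of the 2 oxygen levels did not overlap in 49 members, all higher in hypoxia, a pattern that 11.9% of all tested genes showed. The median log2 difference was 0.73 for H2A, 0.37 for H3, 0.24 for H4, 0.23 for H2B and 0.13 for H1, and -0.005 over all tested genes.

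Hist1h2ai (ENSMUSG00000071516, chromosome 13, 21716422 to 21716814 in GRCm38, a single exon) had the largest difference of all members. It had 102, 94.95 and 165 normalized reads at 21% oxygen in the knockout and 441, 388 and 397 at 1%, 3.47-fold higher (log2 difference 1.79, SE 0.24). Its wild-type libraries had 364 and 167 in normoxia and 281, 307 and 359 in hypoxia. Knockout normoxia thus held the lowest values, though its highest, 165, was close to the 167 of wild-type normoxia replicate 2. Every knockout hypoxia value lay above every wild-type value. The genotype difference in normoxia was -1.07 on the log2 scale, and -0.51 without wild-type normoxia replicate 1. Hist1h2ah (chromosome 13, 22035164 to 22035568) followed, with 96.8, 90.0 and 127 in knockout normoxia, against 239, 312 and 352 in hypoxia, 2.85-fold higher. Its wild-type values were 151 to 255. Most of the sequence of Hist1h2ai and Hist1h2ah also occurs in other genes, as given below, so the values of either gene alone are uncertain.

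The H2A genes with more reads differed less in proportion. Hist2h2aa2 had 5429.9, 5111 and 6559 in knockout normoxia, against 8544, 8397 and 8626 in knockout hypoxia, a log2 difference of 0.59 (SE 0.09). Hist1h2ap went from 2469.8, 2108 and 2919 to 4055, 3902 and 4374, a difference of 0.73 (SE 0.12), and Hist1h2ab from 1977, 2005 and 2309 to 3431, 2949.9 and 3056, a difference of 0.59 (SE 0.08). In all 3 the groups were fully separate. The smallest difference among H2A genes with a mean of at least 50 was 0.16 (SE 0.06), in Hist3h2a on chromosome 11.

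In the H3 class, Hist2h3b (chromosome 3, 96268654 to 96269141) had the largest difference. Its libraries had 899, 708 and 1364 in knockout normoxia, against 1740.0, 1674 and 2002 in knockout hypoxia, a log2 difference of 0.91 (SE 0.18), with wild-type values of 1307 to 1776. The other H3 genes with a mean of at least 50 lay between 0.29 and 0.60. Hist1h3f, for example, went from 4294, 3975 and 4496 to 5521, 5144 and 5419. Hist1h3b went from 3214, 2903 and 3476 to 4211, 3985 and 3937, and Hist1h3e from 2981, 2861 and 3309.5 to 3901, 3756 and 3993. For these 3 genes every knockout hypoxia library was above every knockout normoxia library.

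The H4 genes ranged from 0.01 to 0.45. Hist1h4j was at the upper end, with 2395, 2477 and 2929 in knockout normoxia, against 3656, 3477 and 3459 in hypoxia. At the lower end was Hist4h4, the single member on chromosome 6, with 1283, 1217 and 1307 in normoxia and 1333, 1219 and 1283 in hypoxia, so its groups overlapped. Hist1h4d, between them, went from 7269, 7189 and 7858 to 8742, 8127 and 8148, a log2 difference of 0.17 (SE 0.04). Hist1h4h went from 5809.7, 5838 and 6951 to 8326, 7881 and 8095, a difference of 0.39 (SE 0.07), and Hist1h4c from 5321, 5308 and 6075 to 6727, 6497 and 6322, a difference of 0.23 (SE 0.06). The differences of these abundant members were not tested against each other.

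H2B and H1 genes differed least. Hist1h2bk went from 5625, 5893 and 6089 to 7412, 6786 and 6907, a difference of 0.26 (SE 0.06), and Hist1h2bg from 5154, 4847 and 4970.2 to 6046, 5602 and 5645, 0.21 (SE 0.05). Hist1h2bb went from 3804, 3904 and 3993 to 5176, 4433 and 4498, a difference of 0.27 (SE 0.07). In these 3 H2B genes the groups were separate. The class extremes were low genes with overlapping groups, Hist3h2ba at 0.40 (SE 0.26) and the pseudogene Hist3h2bb-ps at -0.27 (SE 0.24), each with at most 45.4 normalized reads in the knockout. The linker gene Hist1h1c had 8735, 8946 and 9084 in normoxia and 10289, 9877 and 9142 in hypoxia, a difference of 0.13 (SE 0.06). Hist1h1d had 7048, 6771 and 6797 in normoxia and 7942, 7130.4 and 7007 in hypoxia, a difference of 0.10 (SE 0.06). The 5 H1 genes spanned only 0.07 (Hist1h1b) to 0.19 (Hist1h1a).

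The genotypes were also compared at each oxygen level. These comparisons share the knockout libraries with the contrast used for the choice, so their calls are likewise descriptions. In normoxia 2 of 62 members rose in the knockout and 3 fell, where 3.44% and 5.66% of all tested genes did. Those that rose were the linker genes Hist1h1a, with knockout values of 3582, 3578 and 3510.3, and Hist1h1b, with 5288, 5412 and 5104 against wild-type values of 4574 and 4615. Both differed by 0.20 on the log2 scale (SE 0.06 and 0.05). Those that fell were H2A genes, Hist1h2ai by 1.07 (SE 0.27), Hist1h2ah by 0.83 (SE 0.21) and Hist1h2ap by 0.48 (SE 0.14). Of the 17 H2A genes 16 had a negative difference, with a class median of -0.27 (-0.17 after the GC correction by coding sequence described below), while all 5 H1 genes had a positive one, with a median of 0.09. Values did not overlap in 10 members higher and 9 lower in the knockout, where 18.8% and 19.6% of all tested genes showed these patterns, and 8 of the 9 lower ones were H2A genes. Single libraries decided these calls. No H2A gene or other member fell without wild-type normoxia replicate 1, knockout normoxia replicate 1 or knockout normoxia replicate 2. Without wild-type normoxia replicate 2 there were 7 that fell, and without knockout normoxia replicate 3 there were 10. The number that rose was 0 without any 1 of wild-type normoxia replicates 1 and 2, knockout normoxia replicates 1 and 2 and knockout hypoxia replicate 2. It was 1 without knockout normoxia replicate 3 or without wild-type hypoxia replicate 1 or 2.

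In hypoxia the genotypes differed by class medians that lay close together. There, 28 of 62 members rose in the knockout and 0 fell, where 3.33% and 5.61% of all tested genes did. The count of 28 depended on single libraries. It was 5 without knockout hypoxia replicate 1, 7 without wild-type hypoxia replicate 2 and 12 without wild-type hypoxia replicate 3, and it was 17 and 18 without knockout hypoxia replicates 2 and 3. The 28 were 10 of 13 H4, 7 of 15 H2B, 5 of 17 H2A, 3 of 12 H3 and 3 of 5 H1 genes. Class medians were 0.31 for H2A, 0.25 for H3, 0.23 for H4, 0.22 for H2B and 0.21 for H1, against 0.004 over all tested genes. In 46 members every knockout value was above every wild-type value, a pattern that 12.4% of all tested genes showed, and in 0 it was below, where 13.9% showed that.

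The 3 members with the smallest p in this comparison belonged to different classes. Hist1h1e had 7594, 7114 and 7105 in wild-type hypoxia, against 8559, 8340.1 and 8249.5 in knockout hypoxia, a log2 difference of 0.21 (SE 0.04). Hist1h2bl had 1455, 1381 and 1358 against 1979.6, 1624 and 1677, a difference of 0.33 (SE 0.07). Hist1h4i had 639, 628 and 572 against 773, 769 and 725, a difference of 0.30 (SE 0.06). In each the genotypes were fully separate.

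Knockout minus wild-type hypoxia effects had a median of 0.59 on the log2 scale for H2A, 0.38 for H3, 0.25 for H4, 0.11 for H2B and 0.07 for H1. By limma 0 of 62 members passed, and over all tested genes 0.00679% passed upward. At an unadjusted p under 0.05 there were 40 members, or 64.5%, against 5.32% of all tested genes. EdgeR called 0 as well, and DESeq2 called 2, Hist1h2ac with 0.60 and Hist1h2ah with 1.32, where it called 0.0272% of all tested genes upward. By limma 1 gene passed without wild-type normoxia replicate 2 (Hist1h2ac) and 1 without knockout normoxia replicate 3 (Hist1h3h). After the GC correction by coding sequence described below, the class medians were 0.48 for H2A, 0.28 for H3, 0.16 for H4, 0.04 for H2B and 0.01 for H1. At an unadjusted p under 0.05 there were then 27 of 61 members, none of them H2B or H1 genes, against 4.70% of all genes in that fit. This difference contains the contrast by which the genes were chosen.

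**Figure D2:**
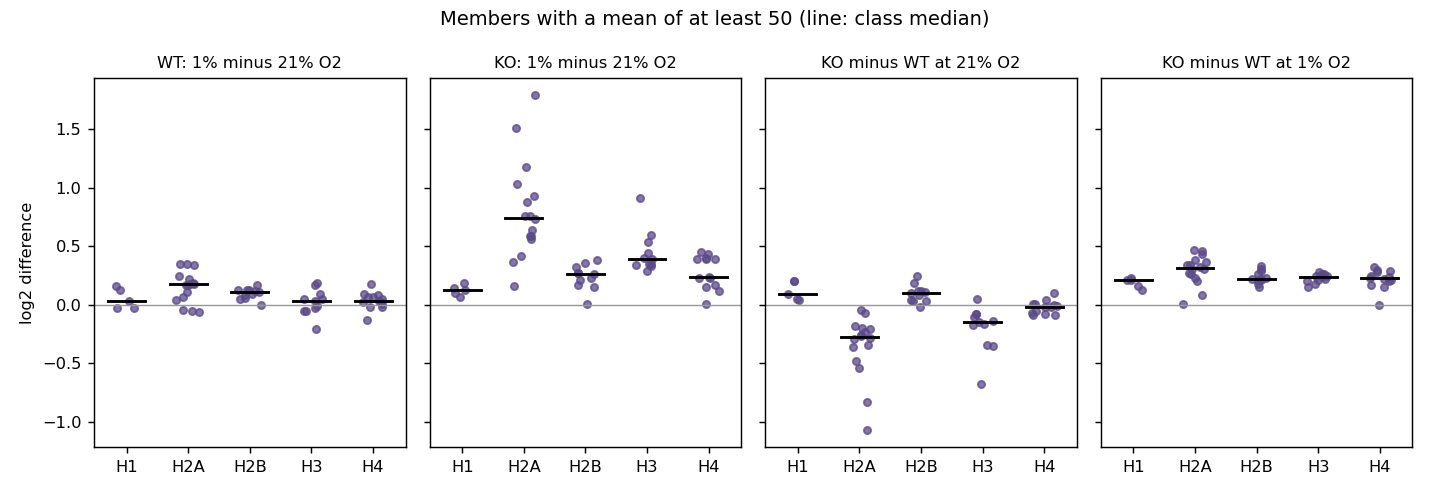
Log2 differences of the histone genes with a mean of at least 50 normalized reads, 1 point per gene, by class and comparison, with the class median as a line. H2A genes spread widely for hypoxia in KO cells and for genotype in normoxia, with Hist1h2ai at 1.79 and -1.07, while for genotype in hypoxia the class medians lie close together, from 0.21 for H1 to 0.31 for H2A.

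Many H2A and H2B genes start back to back and share the DNA between them. The table held 12 such pairs, with 172 to 301 bases between the annotated starts, and in 9 pairs both genes had a mean of at least 50. In knockout hypoxia the H2A gene had the larger difference in 9 of 9 pairs, by a median of 0.72 on the log2 scale (range 0.28 to 1.42). Between genotypes in normoxia it had the lower difference in 9 of 9, by a median of -0.47. In wild-type hypoxia the median gap was 0.05 and between genotypes in hypoxia it was 0.13. The pair Hist1h2ai and Hist1h2bl, 278 bases apart, gave the widest gap. Hist1h2bl had 1344, 1357 and 1348 in knockout normoxia, against 1979.6, 1624 and 1677 in hypoxia, a difference of 0.38, against 1.79 for its neighbour. Partners on either side of the same stretch of DNA thus differed in size. The H2A gene of this pair also has the higher coding GC content, 70.3% against 63.5%, as does the H2A gene in each of the 9 pairs. After the GC correction by coding sequence described below, the differences of this pair were 1.64 and 0.29. The part of GC content in the gaps was not tested beyond this. The knockout hypoxia gaps come from the contrast on which the genes were chosen, and both genotype comparisons share its knockout libraries. Of the 100-base words in the sequence, 88.4% in Hist1h2ai and 62.1% in Hist1h2bl also occur in other genes. The width of this gap is therefore uncertain.

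The 250 bases before the start of Hist1h2ai, chr13:21716162-21716411 on the plus strand, show what this pair shares. They are from the RefSeq promoter table for GRCm38.p6, with CCAAT and its reverse complement ATTGG in capitals.
Hist1h2ai: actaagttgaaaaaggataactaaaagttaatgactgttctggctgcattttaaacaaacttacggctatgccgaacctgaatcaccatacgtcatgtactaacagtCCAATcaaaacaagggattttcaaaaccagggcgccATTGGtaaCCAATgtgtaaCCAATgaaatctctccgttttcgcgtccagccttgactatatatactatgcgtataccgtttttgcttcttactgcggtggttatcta
CCAAT is the motif of the factor NF-Y, and it stood on both strands between the 2 genes. Of 56 members with a RefSeq window of 300 bases, 83.9% held CCAAT on either strand, against 37.3% of 32794 windows of other genes. By class these were 16 of 16 H2A, 12 of 12 H2B, 10 of 10 H3, 6 of 6 H1 and 3 of 12 H4 genes. TATAAA was present in 58.9% of members and 13.5% of other windows. CACGTG, the E-box that the Bmal1 and Clock pair can bind, was in 0 of 56 members and in 7.16% of other windows. The shorter ACGTG, which lies inside CACGTG and is the core of the hypoxia response element, was in 23.2% of members and 19.6% of other windows. A match is a description of these letters in these windows only.

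**Figure D3:**
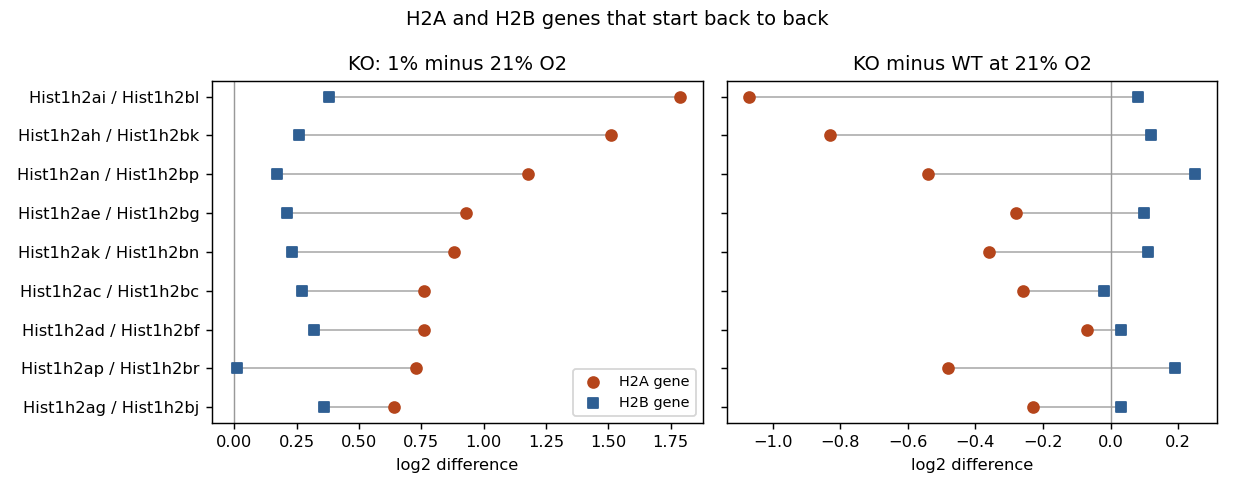
Log2 differences of the 9 back-to-back H2A and H2B pairs with a mean of at least 50 in both genes, for Bmal1-/- (KO) cells at 1% against 21% oxygen and for KO against wild-type (WT) cells at 21%. The H2A gene lies to the right of its partner in 9 of 9 pairs in the first panel and to the left in 9 of 9 in the second.

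Base composition moved with these results. Over 56 members with a mean of at least 50, the knockout hypoxia difference ranked with the GC content of the coding sequence at a Spearman correlation of 0.85, and the normoxia genotype difference at -0.86. The points are genes of the same 11 libraries and differ in class as well as in GC content. Among 9852 other genes with a mean of at least 100 the same correlations were 0.25 and -0.29, and for wild-type hypoxia and the hypoxia genotype difference they were -0.03 and -0.07. Among the members these last 2 correlations were 0.13 and 0.52. Within classes, the correlation of the knockout hypoxia difference with coding GC was 0.76 in 13 H4, 0.70 in 16 H2A and 0.46 in 11 H2B genes, 0.00 in 11 H3 genes and -0.30 in 5 H1 genes. Other genes of 65 to 70% GC in the coding sequence had a median of 0.10 in knockout hypoxia, and 15 of 116 rose and 2 fell. Those of at least 70% had a median of 0.16, and 6 of 30 rose and 0 fell. Over all tested genes, 3.15% rose and 0.937% fell in this comparison.

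The same tilt was seen library by library. The median deviation from the gene mean of 146 other genes with at least 65% GC, minus that of 1263 genes below 45%, was -0.15, -0.19 and -0.01 in the knockout normoxia libraries. It was between 0.01 and 0.12 in the other 8 libraries. Within knockout normoxia, replicates 1 and 2, with the most negative tilt, also had the lowest H2A sums. Among the other 8 libraries, equal tilts went with unlike sums. At a tilt of 0.01, H2A summed to 20551 in wild-type normoxia replicate 2 and to 22115 in wild-type hypoxia replicate 2. In knockout hypoxia replicate 1, also at 0.01, the sum was 29965, the highest of all libraries.

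A correction for GC content was therefore added after the data were seen. In each library a smooth curve of deviation on GC content was fitted to non-histone genes and subtracted. With GC taken over the coding sequence, 32 of 61 members were past the threshold upward in knockout hypoxia, where 3.12% of all genes in that fit were. With GC over all annotated transcripts the number was 33 of 62, against 2.96%. The difference of summed H2A fell from 0.64 to 0.51 or 0.48 on the log2 scale, that of H3 from 0.40 to 0.27 or 0.32 and that of H4 from 0.29 to 0.18 or 0.24. Hist1h2ai remained at 1.64 or 1.49. These counts and values come from the contrast on which the genes were chosen and are a description only. The rank correlation with coding GC among members was 0.79 or 0.82 after correction. Few genes outside the family have a GC content this high, so the curve is least certain there. How much of the knockout hypoxia difference goes with GC content beyond this was not tested. Between genotypes in normoxia the difference of summed H2A went from -0.29 to -0.19 or -0.18 and that of H3 from -0.17 to -0.08 or -0.11. Between genotypes in hypoxia summed H2A was at 0.30 or 0.28, from 0.31, and 36 of 61 (4.38% of all genes in that fit) or 33 of 62 (3.62%) members risen.

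**Figure D4:**
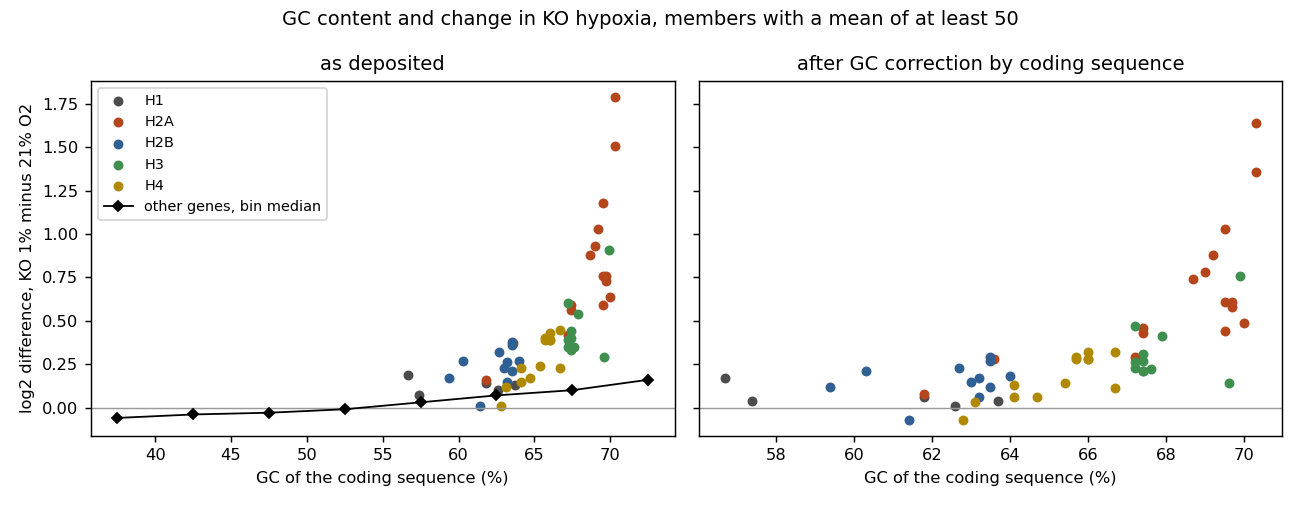
GC content of the coding sequence (percent) against the log2 difference of Bmal1-/- (KO) cells at 1% against 21% oxygen, 1 point per histone gene with a mean of at least 50, coloured by class, before and after correction by coding GC. Black diamonds are medians of other genes in GC bins, which go from -0.06 to 0.16, while H2A genes near 70% GC reach 1.79 as deposited and 1.64 after correction.

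Sequence shared between members limits the values of single genes. In 26 of the 65 genes at least 50% of all 100-base words also occur in another gene, and how the authors' counting treated such reads is not given in the sources used here. Hist2h2aa2 and Hist2h3c1 share 100% of theirs. Hist1h2ai and Hist1h2ah, with the largest differences in knockout hypoxia, share 88.4% and 87.9%. Hist2h3c1 had 0 to 32.3 reads while its near copy Hist2h3c2 had 2350.0 to 3859, so the split between such copies is uncertain. The 22 members with at least 50% shared and a mean of at least 50 had a median of 0.55 in knockout hypoxia, against 0.27 for the 34 with less. Within H2A these medians were 0.74 and 0.59. Reads that were divided among genes of 1 class would leave its sum as it is, but reads that were discarded, or counted in genes outside the class, would change it, and this was not tested.

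Histone variant genes outside the clusters were not among the chosen members. Of 12 tested variant genes, 1 rose in knockout hypoxia, where 3.15% of all tested genes did. This was H2afx, the non-member with the stem-loop. It had 1303, 1246 and 1509 normalized reads in knockout normoxia, against 2057, 1853 and 2196 in hypoxia. The groups were fully separate, and the log2 difference was 0.59 (SE 0.09, limma adjusted p = 0.00231). In wild-type cells it had 1760.3 and 1476 in normoxia and 1531, 1549 and 1825 in hypoxia, so that its hypoxia difference there was 0.02 (SE 0.10, limma adjusted p = 0.969). Knockout minus wild-type, these effects differed by 0.58 (SE 0.14, limma adjusted p = 0.598), so the genotypes were not shown to differ. Its coding GC content is 69.9%, in the range of the H2A members, and after GC correction by coding sequence the knockout difference was 0.44 (limma adjusted p = 0.00345). Over 21 alternatives it ranged from 0.44 to 0.67, with adjusted p from 9.15e-08 to 0.0163.

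Other variants, whose messages are polyadenylated, gave other values. H2afz, which encodes H2A.Z, differed by 0.01 in knockout hypoxia (limma adjusted p = 0.945). It rose in the knockout at both oxygen levels, by 0.33 in normoxia (limma adjusted p = 0.00544) and 0.23 in hypoxia (limma adjusted p = 0.0238). The H3.3 genes H3f3a and H3f3b differed by -0.04 and 0.07 in knockout hypoxia and passed in no comparison. H1f0, the linker variant of resting cells, fell in the knockout in hypoxia by 0.21 (SE 0.05, limma adjusted p = 0.0245).

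**Figure D5:**
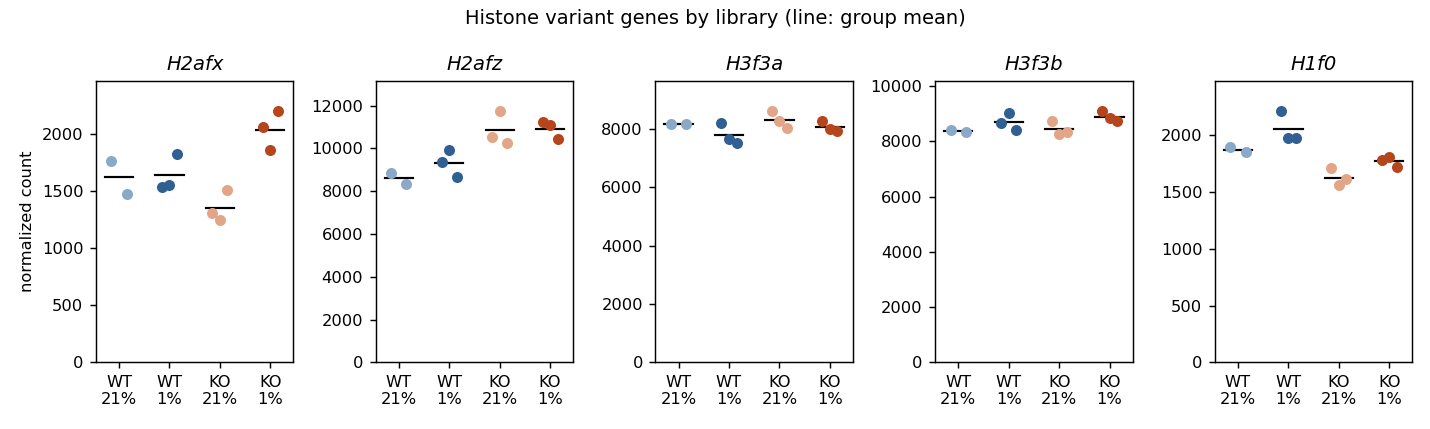
Normalized read counts of 5 histone variant genes outside the clusters, 1 point per library, with group means, for wild-type (WT) and Bmal1-/- (KO) cells at 21% and 1% oxygen. H2afx is the variant whose KO libraries at 1% oxygen (1853 to 2196) lie above those at 21% (1246 to 1509), and H2afz lies higher in KO than in WT libraries at both oxygen levels.

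The machinery that makes and ends histone messages was read from a list of its genes. Of 24 tested genes for histone transcription and 3' end processing, 0 rose and 0 fell in wild-type hypoxia and in both genotype comparisons, and 1 rose in knockout hypoxia, a share close to the 3.15% of all tested genes. That gene was Sympk, a scaffold of the cleavage complex, which went from 1194, 1136 and 1148 to 1506, 1407 and 1364 (log2 difference 0.30, SE 0.06, limma adjusted p = 0.00865). Slbp, the stem-loop binding protein, differed by -0.04 in knockout hypoxia (SE 0.06, limma adjusted p = 0.793). Npat, the coactivator of the histone clusters, also differed by -0.04 (SE 0.07, limma adjusted p = 0.843). Their partners Casp8ap2, Lsm10 and Lsm11 passed in no comparison. Lsm11, of the U7 particle, differed by 0.21 in knockout hypoxia (limma adjusted p = 0.333).

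Among 23 histone chaperones, 1 rose in each hypoxia comparison and 3 rose in the knockout in normoxia, where 1.70% (wild-type hypoxia), 3.15% (knockout hypoxia) and 3.44% of all tested genes rose. Chaf1a, a subunit of the chromatin assembly factor CAF-1, rose by 0.43 in wild-type hypoxia (limma adjusted p = 0.0112) and differed by 0.27 in knockout hypoxia (limma adjusted p = 0.0528). Cabin1, of the H3.3 chaperone HIRA complex, rose by 0.29 in knockout hypoxia (limma adjusted p = 0.0171). Nasp, which binds soluble H3 and H4, rose in the knockout in normoxia by 0.28 (limma adjusted p = 0.00381), as did Rbbp4 and Atrx, by 0.23 and 0.22.

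Of 50 S phase genes, 1 rose in knockout hypoxia, where 3.15% of all tested genes did. It was Cdt1 by 0.22 (limma adjusted p = 0.0444). The list's median there was -0.02, and the replication clamp Pcna differed by -0.05 (limma adjusted p = 0.618). Of 24 G2 and mitosis genes 0 rose and 0 fell in either hypoxia comparison. Between genotypes, 5 S phase and 5 G2 and mitosis genes rose in the knockout in normoxia, and 6 and 3 in hypoxia, where 3.44% and 3.33% of all tested genes rose. Top2a, which untangles replicated DNA, rose by 0.25 in normoxia (limma adjusted p = 0.00336) and 0.17 in hypoxia (limma adjusted p = 0.018), and Rrm2, for nucleotide supply, by 0.27 and 0.22. Pole, the catalytic subunit of a replicative DNA polymerase, rose in the knockout in hypoxia by 0.31 (SE 0.04, limma adjusted p = 0.000321). The cyclin E genes, whose product activates Npat through CDK2, were each called at 1 oxygen level. Ccne1 rose in normoxia by 0.25 (limma adjusted p = 0.0419) and Ccne2 in hypoxia by 0.31 (limma adjusted p = 0.0199). In wild-type hypoxia 1 of the 50 S phase genes rose and 1 fell, where 1.70% and 0.468% of all tested genes did. Chaf1a, also in the chaperone list, was the one that rose. E2f2 fell by 0.77 (limma adjusted p = 0.0142). Summed S phase genes were 74530 to 77253 in the knockout libraries and 68212 to 73418 in the wild-type libraries.

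Other transcripts without a poly(A) tail were compared as well. Of 6, among them Rn7sk, Rmrp and Rpph1, 0 rose and 0 fell in any of the 4 comparisons of groups. Between 0.468% and 5.66% of all tested genes were called in 1 direction there, so 0 of 6 allows no statement. The median of the 6 in knockout hypoxia was 0.10. The largest difference there was in Terc, the telomerase RNA, at 0.58 (SE 0.18, limma adjusted p = 0.101). Cell type markers differed by genotype. Of 9 tested myoblast markers 2 rose in the knockout in normoxia and 4 in hypoxia, where 3.44% and 3.33% of all tested genes rose. In knockout hypoxia 1 of the 9 myoblast markers fell, where 0.937% of all tested genes did. Of 9 tested fibroblast markers 8 fell in the knockout at each oxygen level, where 5.66% (normoxia) and 5.61% (hypoxia) of all tested genes fell. The fibroblast list's sums were 24825 to 28130 in wild-type and 17202 to 21094 in knockout libraries. In knockout hypoxia 3 of the 9 fibroblast markers rose, where 3.15% of all tested genes did. Of 5 tested pericyte and smooth muscle markers 1, Acta2, fell in all 4 comparisons. Over all tested genes 0.468% (wild-type hypoxia), 0.937% (knockout hypoxia), 5.66% (genotype in normoxia) and 5.61% (genotype in hypoxia) fell. This list's sums were 31879 to 33122 and 28197 to 29500 in wild-type normoxia and hypoxia. In the knockout they were 28179 to 28563 and 25125 to 25617. The part of any of these lists in the histone values was not tested.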

How the data were processed

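RNA of 11 myoblast libraries was sequenced with a stranded total RNA kit, per the labels' protocols. Per the submitters' processing notes, bcl2fastq, STAR, Picard, HTSeq, RSEM and DESeq2 were used with mm10. How reads that match several genes were assigned is not given in the sources used here, which matters for near-identical histone genes. The table deposited by the authors holds a signal per gene, read counts divided by a size factor per library. Every value came out as a whole number of reads to within 0.01 read, and 0 columns were left unused.

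Genes that reached 10 in 2 or more libraries were tested with limma 3.58.1 in R 4.3.3 (trend) on log2(value + 1), in 1 fit over the 4 groups, with Benjamini-Hochberg adjustment over all 14729 genes and a threshold of 0.05. Log2 differences are on that scale, which understates changes of low genes. Class sums are sums of values, compared as differences between group means of their log2 values with no test. The percentages of class sums come from these differences, not from the group means printed beside them. Alternatives were other pseudocounts and filters, edgeR 4.0.16 and DESeq2 1.42.0 on recovered reads, only the 2 groups compared, leaving out each library, and 2 corrections for GC content added after seeing the data. The scripts were tested on simulated data. Members and gene lists were chosen with earlier results of these data known. Members named with values were, per class, the 3 with the highest mean and those with the largest and smallest knockout hypoxia difference, the members with the smallest p in the other comparisons and those beside the filter limit. Of the lists, key genes and those with the smallest p were named. Hist1h2ac, Hist1h3h, Hist3h2a, Hist2h3c2 and other members named outside this rule were chosen after their values were seen. Stem-loops and coding sequences are from GENCODE M21 and promoters from RefSeq, both GRCm38.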

Additional observations from a re-analysis of the deposited data

How the results depend on the processing

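Among the named genes and the counts of members, no call reversed under the alternatives run. The count of members past the threshold upward in knockout hypoxia ranged from 31 to 44. Between genotypes in normoxia, the number that rose was 0 with no filter on low values, 1 by edgeR and 0 to 2 with 1 library left out. The number that fell was 0 when only the 2 groups were fitted, 5 by DESeq2 and 0 to 10 with 1 library left out. Between genotypes in hypoxia the number that rose was 5 to 31 with 1 library left out. For the difference of hypoxia effects it was 2 by DESeq2 and 0 to 1 with 1 library left out, and a fit of only 2 groups gives no such value. After GC correction by coding sequence, the log2 difference of class sums in knockout hypoxia was 0.05 for H1, 0.51 for H2A (0.48 by transcript), 0.16 for H2B, 0.27 for H3 and 0.18 for H4. Between genotypes in normoxia it was 0.16 for H1, -0.19 for H2A, -0.08 for H3 and 0.06 for H4. With 1 library left out, the wild-type hypoxia difference was -0.09 to 0.19 for H2A and -0.12 to 0.12 for H3, and the genotype difference in normoxia was -0.43 to -0.15 for H2A and -0.29 to -0.06 for H3. Beyond these constructions the cause was not tested. Among 33 named genes, 2580 alternative values kept direction and side of the threshold, 37 passed it and 131 no longer did. With 2 wild-type normoxia libraries, that group carries the least certain mean, and members with few reads, such as Hist1h2ao, allow no statement on change. No paired analysis was possible because the labels give each library its own number, and the replicate numbers used here follow the order of deposit.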
